A study of Cloeon viridulum with 15 samples.

Results

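Chitin, a polymer of N-acetylglucosamine, stiffens the insect cuticle and, in many insects, forms part of the peritrophic matrix that lines the midgut around the food. Chitinases cut the polymer inside the chain, beta-hexosaminidases take single sugars off the ends of the pieces, and chitin-binding proteins of the peritrophin kind hold the fibres together through peritrophin-A domains. At a moult the old cuticle is digested by such enzymes while a new one is laid down beneath it. The values below follow these genes through the life of the mayfly Cloeon viridulum. Its aquatic larva becomes a winged subimago that moults once more, to the reproductive imago, and neither winged stage feeds.

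The members were all unigenes (sequences assembled without a genome) whose annotated protein name held a word for chitinase, chitin deacetylase, chitin-binding protein, peritrophin, peritrophic protein, hexosaminidase or obstructor and whose best protein hit was from an animal. Names with cuticle, cuticular or chitin synthase were left out. The rule found 53 of 91881 unigenes, of which 31014 had a protein hit at all. There were 22 chitinases, 14 hexosaminidases and 17 chitin-binding proteins, and the best hit was an arthropod protein for all 53. The words chitin deacetylase and obstructor matched 0 unigenes with an animal hit, so no deacetylase is described. Members were 310 to 9948 bp long, with a median of 722 bp. They had 43 distinct best hits, and 16 members shared a hit with another member, so some may be pieces of 1 gene or near copies whose reads could be split. Peritrophic matrix protein 14 of the beetle Tribolium castaneum was the best hit of 5 members.

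RNA of whole, field-collected and indoor-reared animals came from 4 stages, each with 3 libraries, and from 3 libraries of a mixture of the stages. Young larvae were pooled by 10 per library, and each library of a later stage came from 3 males with 3 females. The mixture took 11 animals of all stages per library. No genotype or treatment is given in the labels. Library totals ran from 36550269 to 74837923 reads. In pooled whole bodies, fewer cells of a type and less RNA per cell cannot be told apart. Mature larva replicate 1 and young larva replicate 2 lay apart from their groups in midgut enzymes and in reads with protist or fungal hits. Libraries of the winged stages also differed within a group, in the share of reads on unigenes without a protein hit. That share was 48.8% in subimago replicate 3 against 33.2% and 30.1% in the others. In imago replicate 2 it was 35.8% against 22% and 21.3%. The summed level of 130 midgut digestive enzyme unigenes was 9544, 2132 and 9891 RPKM in the young larvae and 3257, 624 and 502 RPKM in the mature larvae. It ran from 523 to 683 RPKM in the subimagoes and from 266 to 376 RPKM in the imagoes. Unigenes with a protist or fungal hit took 8%, 1.74% and 5.05% of young larva reads, 2.45% of those of mature larva replicate 1 and 0.193% and 0.275% of those of the other mature larvae. Member calls that changed without mature larva replicate 1 are therefore given without it too. Levels below are RPKM (reads scaled by unigene length and by library size, after TMM scaling), and a change was called at an adjusted p under 0.05 in edgeR's quasi-likelihood test over 34131 unigenes.

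Summed over each family, chitin-binding protein RNA was lowest in the imago, chitinase RNA stepped down through life, and hexosaminidase RNA varied least. The summed level of the chitin-binding proteins was 1104, 568 and 1233 RPKM in the young larvae, 738, 748 and 176 RPKM in the mature larvae and 1093, 692 and 787 RPKM in the subimagoes. In the imagoes it was 19.7, 19.6 and 20.7 RPKM, below every library of the other stages. Chitinases summed to 286, 380.4 and 373 RPKM in the young larvae, 283, 237 and 128 RPKM in the mature larvae, 151, 102 and 102 RPKM in the subimagoes and 49.3, 53 and 43.3 RPKM in the imagoes. Every young larva library lay above every later one, and every imago library below all others. The hexosaminidase sum was 142 ± 27.8 RPKM in young larvae (SD, n = 3) and 94.7 ± 2.11 RPKM in imagoes, with 93.5 ± 18.5 and 74.3 ± 2.83 RPKM in between. These sums add up unigenes that may overlap in sequence, and no test was made on them.

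**Figure D1:**
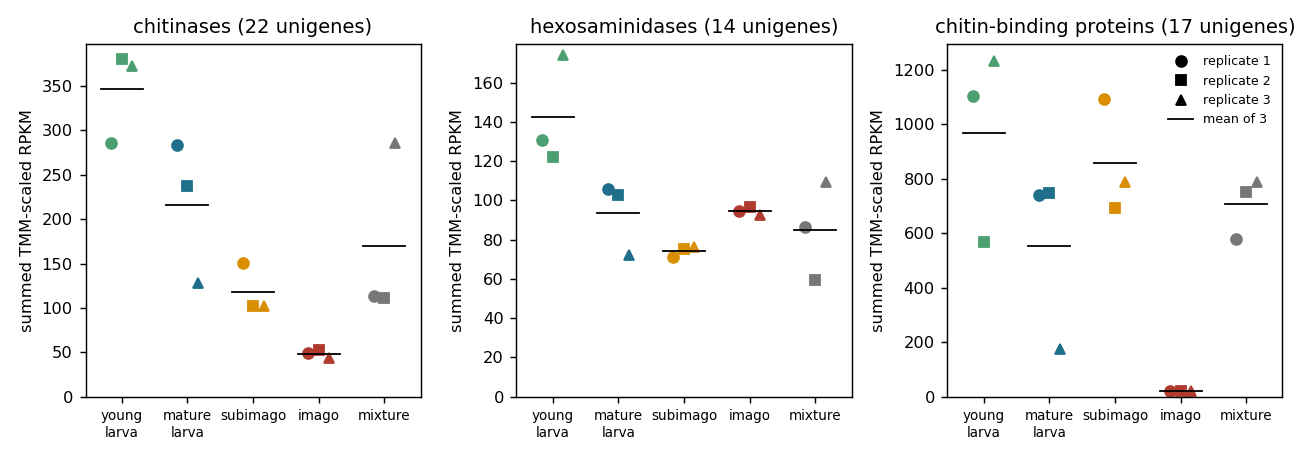
Summed TMM-scaled RPKM of the chitinases, hexosaminidases and chitin-binding proteins in every library (linear axes from 0); symbols are replicates and the line is the mean of 3 libraries. The chitin-binding proteins lie at 19.6 to 20.7 RPKM in the imagoes, while the hexosaminidase sum lies between 71.1 and 174 RPKM in all 12 stage libraries.

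Of the 53 members, 36 had enough reads to be tested (14 chitinases, 9 hexosaminidases and 13 chitin-binding proteins). The other 17 had 5 to 110 reads over all 15 libraries and never exceeded 1.42 RPKM. Between young and mature larvae 5 members (13.9%) rose and 6 (16.7%) fell, against 25.3% and 9.73% of all tested unigenes. From mature larva to subimago 7 members (19.4%) rose and 10 (27.8%) fell, against 8.98% and 14.2%. From subimago to imago 3 members (8.33%) rose and 12 (33.3%) fell, against 6.74% and 9.26%. The members' median log2 changes were -0.94, -1.19 and -1.91 in that order, beside -0.05, -0.28 and -0.02 for all tested unigenes. Among tested unigenes with an arthropod hit, the share that rose and fell was 37.0% and 15.9%, then 16.4% and 15.3%, then 13.6% and 11.0%. Successive comparisons share the libraries of the stage between them. In all, 25 members were called at 1 transition or more and 11 at none. Leaving out mature larva replicate 1, 5 members rose and 15 of 39 fell between the larval stages, beside 24.8% and 25.6% of all unigenes then tested. In that fit 6 rose and 4 fell into the subimago, beside 2.68% and 5.28%, and 4 rose and 12 fell into the imago, beside 6.52% and 8.47%. Leaving out young larva replicate 2, 5 rose and 4 of 37 fell, beside 21.4% and 7.26%, then 7 rose and 8 fell, beside 7.04% and 10.2%, and last 3 rose and 11 fell, beside 5.47% and 7.82%. The larval falls numbered 2, 3 and 1 without young larva replicate 1, mature larva replicate 2 and mature larva replicate 3. The rises into the subimago numbered 4 without subimago replicate 3, and the falls 6, 3 and 3 without subimago replicates 1, 2 and 3 and 5, 5 and 6 without imago replicates 1, 2 and 3. The rises into the imago numbered 1 without subimago replicate 1 or 2 or any 1 imago, and the falls into the imago ran from 9 to 12 over all libraries left out. Calls over all unigenes also became fewer in such fits. The member counts therefore do not tell whether members lost calls more readily than other unigenes. Over all unigenes the lowest counts, not always from the same fit, were 1755 larval falls (3322 with all libraries) and 783 rises into the subimago (3064). Falls into the subimago went down to 1067 (4833), and rises and falls into the imago to 1074 (2300) and 1908 (3161).

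**Figure D2:**
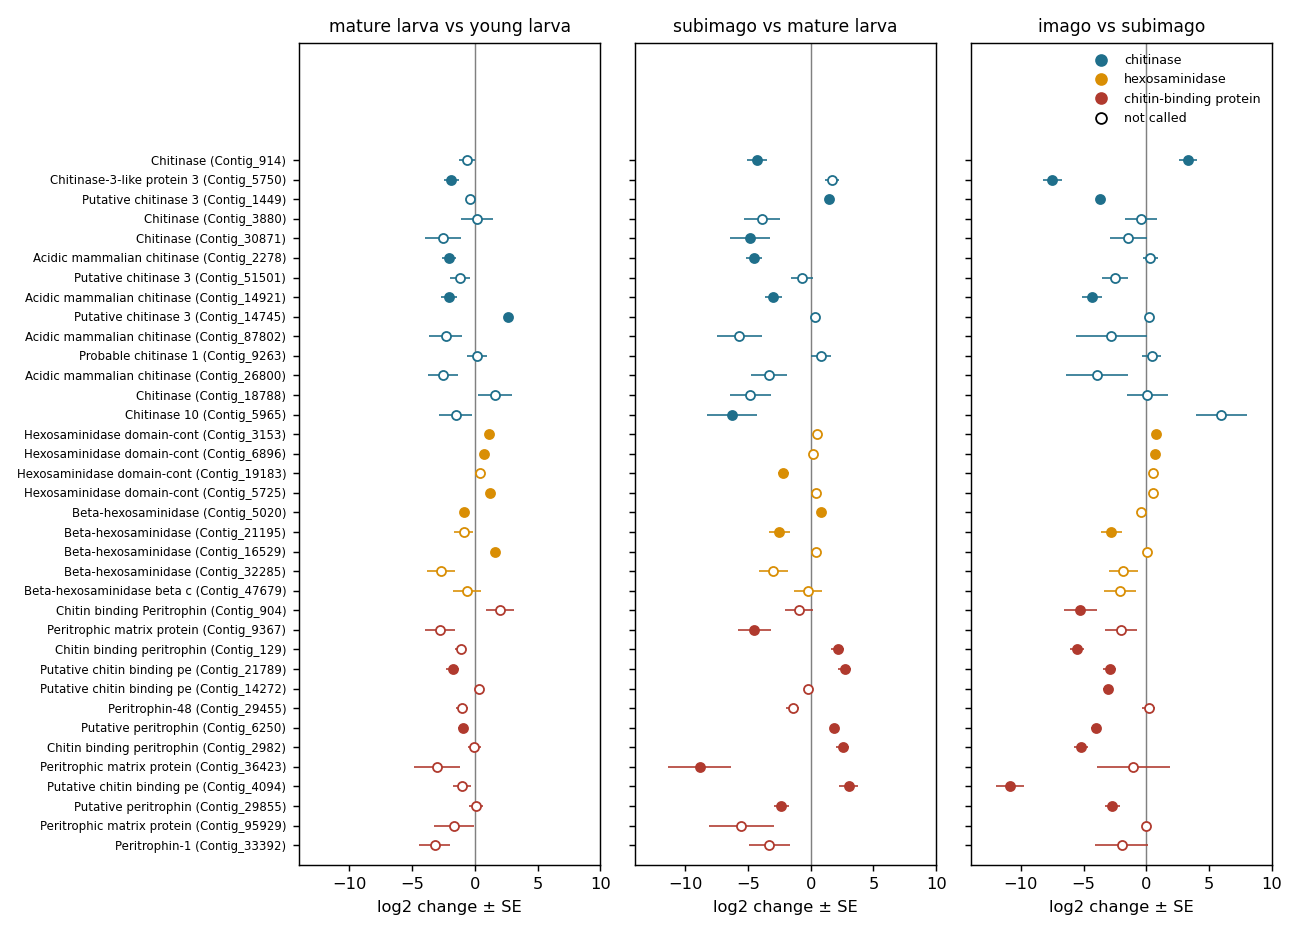
Log2 change ± SE of the 36 tested members at the 3 transitions, from the model over all 15 libraries; rows are members, longest first within each family, and filled symbols are calls at an adjusted p under 0.05. Chitin-binding proteins made 8 of the 12 calls of a fall from subimago to imago, and 4 of the 5 rises between larval stages were hexosaminidases. Of all tested unigenes, 9.26% fell into the imago and 25.3% rose between larval stages (11.0% and 37.0% of those with an arthropod hit). The point at 0 for 13_Contig_95929 from subimago to imago stands for 0 reads in both stages.

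Among the families, the chitin-binding proteins were most often highest in the subimago. For 5 of the 13 tested chitin-binding proteins and 1 of the 14 chitinases, all 3 subimago libraries lay above the 9 libraries of the other stages, which held for 5.32% of all tested unigenes. The longest of them, 13_Contig_129, was at 91.2, 79.5 and 132 RPKM in young larvae, 35.1, 48.2 and 55.1 RPKM in mature larvae, 219, 185 and 205 RPKM in subimagoes and 4.03, 4.37 and 4.86 RPKM in imagoes. No stage overlapped with another. It rose into the subimago (log2 change 2.14 ± 0.48, adjusted p = 0.0143) and fell into the imago (log2 change -5.52 ± 0.56, adjusted p = 8.54e-05). The rise was lost without subimago replicate 3 (adjusted p = 0.0523), and the fall held without any 1 library.

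With all libraries, the largest change of any tested member at 1 transition was that of 13_Contig_4094, a 548 bp unigene whose best hit is a putative chitin-binding peritrophin-A protein. It stood at 51.5, 69.1 and 120.1 RPKM in young larvae and at 30.1, 82.3 and 6 RPKM in mature larvae. All subimagoes were far above these, at 346, 292 and 342 RPKM. In the imagoes 7, 4 and 3 reads were left, or 0.244, 0.155 and 0.106 RPKM. Its log2 change was 3.05 ± 0.76 into the subimago (adjusted p = 0.0213) and -10.88 ± 1.11 into the imago (adjusted p = 8.81e-05). The rise was not called without mature larva replicate 1 or without any 1 of the subimagoes (adjusted p of 0.0525 to 0.0699), while its size stayed between 2.91 and 3.13. With all libraries of both stages kept, it was also lost without a read filter (0.0841) and when only the 2 stages were fitted (0.0937).

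A peritrophin-like unigene, 13_Contig_6250, was also highest in the subimago and lowest in the imago. It stood at 85, 77.8 and 67.3 RPKM in young larvae, 42.3, 31.3 and 43.4 RPKM in mature larvae, 208, 109 and 113 RPKM in subimagoes and 8.24, 8.99 and 9.41 RPKM in imagoes. The 4 stages did not overlap. It fell between the larval stages (log2 change -0.98 ± 0.33, adjusted p = 0.0374), rose into the subimago (1.88 ± 0.34, adjusted p = 0.00555) and fell into the imago (-4.01 ± 0.37, adjusted p = 4.95e-05). The larval fall was lost without any 1 of 11 libraries, at adjusted p of 0.0517 to 0.134. It remained called without mature larva replicate 1 and without subimago replicates 1 and 3 and mixture replicate 3.

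At lower levels, 13_Contig_2982 was at 1.93, 1.38 and 1.63 RPKM in young larvae, 0.793, 1.79 and 2.25 RPKM in mature larvae and 10.8, 8.98 and 8.27 RPKM in subimagoes, then at 0.142, 0.334 and 0.27 RPKM in imagoes. The larval stages overlapped, and the subimagoes stood clear of both. It rose by 2.54 ± 0.50 on the log2 scale into the subimago (adjusted p = 0.00822) and fell by 5.22 ± 0.57 into the imago (adjusted p = 0.000112). The weakest of the group, 13_Contig_21789, was at 1.15, 0.958 and 0.846 RPKM in subimagoes against 0.21, 0.0403 and 0.186 RPKM in mature larvae and 0.0925, 0.154 and 0.141 RPKM in imagoes. It fell between the larval stages (log2 change -1.76 ± 0.51, adjusted p = 0.0174, and 0.0725 without young larva replicate 1), rose into the subimago (2.70 ± 0.52, adjusted p = 0.00763) and fell into the imago (-2.92 ± 0.53, adjusted p = 0.00288).

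Among the chitinases, 13_Contig_1449 had this course. Its best hit is a putative chitinase 3 of the termite Zootermopsis nevadensis. Young larvae held 25.1, 31.1 and 40.3 RPKM, mature larvae 21.1, 26.1 and 26.4 RPKM, subimagoes 86.5, 58.5 and 59.3 RPKM and imagoes 4.93, 6 and 5 RPKM. Every subimago was above every larva, and every imago below. It rose into the subimago (log2 change 1.47 ± 0.21, adjusted p = 0.00187) and fell into the imago (-3.68 ± 0.23, adjusted p = 5.66e-06), and both calls held when any 1 library was left out. A further unigene, 13_Contig_5750, named chitinase-3-like protein 3, stood at 57.9, 34.4 and 15.7 RPKM in young larvae, 17.5, 7.01 and 5.29 RPKM in mature larvae and 41.6, 28.9 and 25.7 RPKM in subimagoes. In imagoes it was at 0.185, 0.159 and 0.192 RPKM. Subimagoes thus lay within the range of the young larvae and above all mature larvae. The fall into the imago was called (log2 change -7.48 ± 0.75, adjusted p = 7.91e-05), whereas the subimago differed from the mature larva by 1.69 ± 0.57 (adjusted p = 0.0517, and 0.0218 without mature larva replicate 1). The fall between larval stages (-1.86 ± 0.57, adjusted p = 0.0247) was lost without young larva replicate 1 or 2 or mature larva replicate 2 or 3 (adjusted p of 0.0537 to 0.118).

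**Figure D3:**
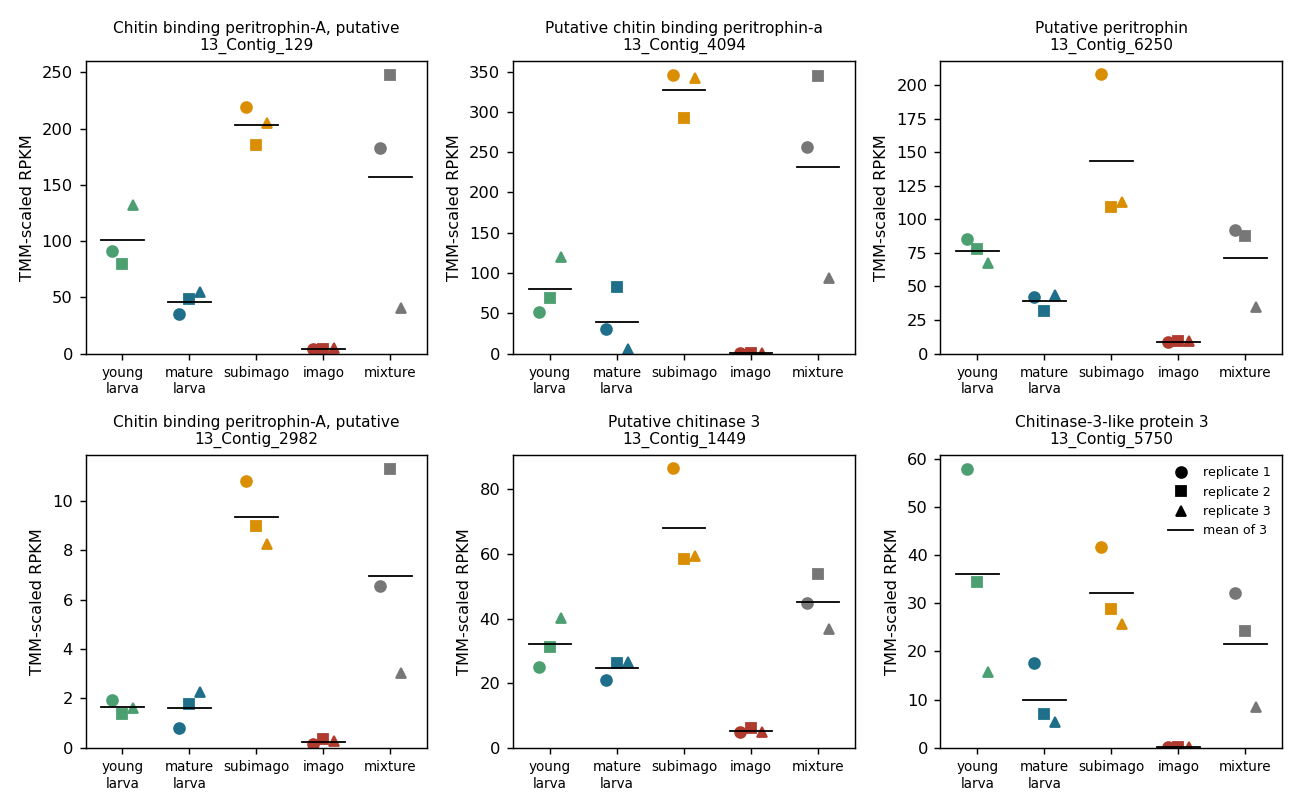
TMM-scaled RPKM per library of 4 chitin-binding proteins and 2 chitinases (linear axes from 0); symbols are replicates and the line is the mean of 3 libraries. Subimago values of 13_Contig_4094 were 292 to 346 RPKM and imago values 0.106 to 0.244 RPKM.

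Further chitin-binding proteins fell into the imago without standing out in the subimago. Among the most abundant of all, 13_Contig_904, with a mean of 141 RPKM over the 12 stage libraries, was at 34.4, 115 and 90.6 RPKM in young larvae, 363, 550 and 37 RPKM in mature larvae and 294, 84.8 and 109 RPKM in subimagoes. The larval and subimago libraries overlapped widely, and the imagoes lay below them all at 4.83, 3.9 and 4 RPKM. Its fall into the imago was called (log2 change -5.26 ± 1.32, adjusted p = 0.0183). That call was lost without subimago replicate 1 or any 1 imago (adjusted p of 0.0662 to 0.0835). Levels of 13_Contig_14272 were near flat at first, from 2.61 to 5.8 RPKM in the 9 larval and subimago libraries, and then 0.759, 0.453 and 0.32 RPKM in imagoes (log2 change -3.06 ± 0.36, adjusted p = 0.000175). A short peritrophin-like unigene, 13_Contig_29855, went down in steps. It was at 36.6, 9.47 and 37.1 RPKM in young larvae, 34.8, 27.1 and 26.1 RPKM in mature larvae, 9, 3.94 and 4.68 RPKM in subimagoes and 0.794, 0.754 and 1.15 RPKM in imagoes. Both later steps were called (log2 change -2.32 ± 0.60, adjusted p = 0.0232, and -2.70 ± 0.62, adjusted p = 0.0109). The first was lost without mature larva replicate 1 or subimago replicate 2 or 3 (adjusted p of 0.0532 to 0.0988), and the second without subimago replicate 1 or imago replicate 1 or 2 (0.0507 to 0.0541).

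In contrast to these, the longest chitinase was low in the subimago. The 9948 bp unigene 13_Contig_914 took the largest part of all member reads in each imago library, 36.1% to 43.6%. It was also first in each young larva library (23% to 32.6%) and in mature larva replicate 3 (44.6%). These shares are not scaled by length. Its imago mean was 27.3 RPKM, beside 27.4 RPKM for 13_Contig_6896. By library, 13_Contig_914 was at 57.4, 78 and 109 RPKM in young larvae, 58.6, 45.4 and 55 RPKM in mature larvae, 4.41, 1.96 and 1.87 RPKM in subimagoes and 29, 30.9 and 22 RPKM in imagoes. The subimagoes lay below every library of the other stages. It fell into the subimago (log2 change -4.27 ± 0.76, adjusted p = 0.00534) and rose into the imago (3.31 ± 0.72, adjusted p = 0.00889), and it was the 1 chitinase called higher in the imago. Leaving out any 1 library changed neither call.

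The 381 bp unigene 13_Contig_5965, named chitinase 10, had reads in the same stages. It was at 0.676, 3.52 and 14.5 RPKM in young larvae, 1.47, 0.175 and 4.72 RPKM in mature larvae and 2.16, 2.73 and 0.306 RPKM in imagoes. Only 1 read was counted over the 3 subimagoes, against 123 over the mature larvae and 98 over the imagoes. Scaled for library size, the mature larvae held 106 times the subimago level (exact 95% interval 18.7 to 4219, counting error only), and the imagoes 85.5 times (15 to 3411). The fall into the subimago was called (adjusted p = 0.0424), but was lost without young larva replicate 2, mature larva replicate 1 or 3, mixture replicate 2 or any 1 subimago or imago (adjusted p of 0.0532 to 0.144). The imago differed from the subimago at an adjusted p of 0.0641.

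A chitinase and a beta-hexosaminidase were high in most larvae and low in both winged stages. The chitinase 13_Contig_3880 ranged widely among larvae, with 2.72, 172 and 76.6 RPKM in young and 126, 136 and 16.7 RPKM in mature larvae. It was at 9.88, 4 and 5.25 RPKM in subimagoes and 4.33, 5.75 and 4.15 RPKM in imagoes. Young larva replicate 1 lay below all winged animals, while all mature larvae lay above them. No change was called (log2 change -3.87 ± 1.41, adjusted p = 0.0646 into the subimago). The beta-hexosaminidase 13_Contig_21195 was at 39.5, 76.6 and 73.1 RPKM in young larvae, 41.6, 42.8 and 17.4 RPKM in mature larvae, 10.5, 4.83 and 2.91 RPKM in subimagoes and 1, 1.01 and 0.588 RPKM in imagoes. Both later falls were called narrowly (log2 change -2.48 ± 0.81, adjusted p = 0.0458, and -2.81 ± 0.83, adjusted p = 0.0384). The first was lost without any 1 stage library except mature larva replicate 3 (adjusted p of 0.0567 to 0.152). The second was lost without young larva replicate 2 or 3, mature larva replicate 2, subimago replicate 1 or 2 or any 1 imago (adjusted p of 0.051 to 0.17). In mixture replicate 3 this unigene stood at 36.4 RPKM against 4.02 and 4.45 RPKM in the other mixtures. Mixture replicate 3 was likewise high for 13_Contig_3880 (167 against 10.1 and 10.6 RPKM), 13_Contig_914 (50.2 against 6.26 and 7.15 RPKM) and 13_Contig_904 (595 against 27 and 39.3 RPKM).

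A pair of chitinases was at its highest in young larvae. Both are named after the acidic mammalian chitinase, a vertebrate enzyme of the stomach and lung, but their best hits are arthropod proteins. The first, 13_Contig_2278, was at 24.6, 25.6 and 26.3 RPKM in young larvae, 7.99, 4.51 and 5.81 RPKM in mature larvae, 0.141, 0.258 and 0.401 RPKM in subimagoes and 0.307, 0.241 and 0.442 RPKM in imagoes. It fell at both of the first steps (log2 change -2.06 ± 0.57, adjusted p = 0.0127, and -4.52 ± 0.64, adjusted p = 0.00177), and the winged stages overlapped. The second, 13_Contig_14921, was at 32.9, 19.8 and 22.9 RPKM in young larvae, 11, 2.58 and 4.49 RPKM in mature larvae, 0.954, 0.694 and 0.676 RPKM in subimagoes and 0.0266, 0 and 0.0811 RPKM in imagoes. No stage overlapped with the next. It fell at all 3 transitions, with log2 changes of -2.06 ± 0.64 (adjusted p = 0.024), -2.96 ± 0.67 (adjusted p = 0.0143) and -4.34 ± 0.77 (adjusted p = 0.00256). The larval fall was lost without mature larva replicate 2 or 3 for the first (0.051 and 0.0503) and for the second (0.0779 and 0.0791), and for the second also without young larva replicate 1 (0.0789) or 3 (0.0501). Its fall into the subimago was lost without subimago replicate 2 (0.0679) or 3 (0.0676).

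The next 4 members had the same libraries high as the midgut digestive enzymes. The 719 bp unigene 13_Contig_36423, a hit to peritrophic matrix protein 14, reached 687, 157 and 689 RPKM in young larvae and 192 RPKM in mature larva replicate 1. In the other mature larvae it had 2 and 0 reads, and in the 6 winged libraries 0 to 5 reads. The chitinase 13_Contig_30871, whose best hit is a spider protein, was at 62.8, 4.27 and 49.3 RPKM in young larvae and 19.4, 0.292 and 0.166 RPKM in mature larvae, with 0.0425 to 0.351 RPKM in winged animals. The same order held for the beta-hexosaminidase 13_Contig_32285, at 61.9, 7.71 and 64.3 RPKM in young larvae and 19, 1.32 and 0.391 RPKM in mature larvae. It was at 0.859 to 0.906 RPKM in subimagoes and 0.173 to 0.292 RPKM in imagoes. In each of the 3, young larva replicates 1 and 3 were highest, then mature larva replicate 1, then young larva replicate 2, as for the summed midgut enzymes. The share of reads with a protist or fungal hit had this order too (8% and 5.05%, then 2.45%, then 1.74%). A second peritrophic matrix protein 14 unigene, 13_Contig_9367, was at 105, 50.2 and 83.1 RPKM in young larvae, 33.3, 1.15 and 0.753 RPKM in mature larvae, 0.444 to 0.68 RPKM in subimagoes and 0.0826 to 0.189 RPKM in imagoes. Here young larva replicate 2 lay above mature larva replicate 1.

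The calls of these unigenes rested on mature larva replicate 1. With all libraries, 13_Contig_36423, 13_Contig_30871 and 13_Contig_9367 were called lower in the subimago than in the mature larva (log2 change -8.84 ± 2.54, adjusted p = 0.0319; -4.84 ± 1.59, adjusted p = 0.0465; -4.47 ± 1.29, adjusted p = 0.0324), and none of the 4 fell between larval stages by the test. Leaving out that library, the log2 changes into the subimago were 1.72 (adjusted p = 0.541), 0.05 (adjusted p = 1) and -0.82 (adjusted p = 0.477). The 4 were then called lower in mature than in young larvae, with log2 changes of -13.50 ± 1.09 for 13_Contig_36423, -7.38 ± 1.07 for 13_Contig_30871, -5.70 ± 0.90 for 13_Contig_32285 and -6.35 ± 0.80 for 13_Contig_9367 (adjusted p of 4.52e-07 to 0.000177). In that fit 25.6% of all tested unigenes were called lower in mature larvae. The fall of 13_Contig_36423 into the subimago was also lost without any 1 subimago or imago replicate 1 or 2 (adjusted p of 0.0507 to 0.118), and that of 13_Contig_9367 without any 1 subimago or imago (0.0506 to 0.113). For 13_Contig_30871 the call held only when the library left out was young larva replicate 2 or mature larva replicate 2 or 3 (otherwise 0.0587 to 1). Other marker sums were also higher in young larvae. The sum of 33 muscle unigenes was 6245 to 9768 RPKM there, against 746 to 2479.8 RPKM in mature larvae and 399 to 616 RPKM in winged animals. The fat body sum (8 unigenes) was 2438 to 2996 RPKM in young and 134 to 839.8 RPKM in mature larvae, and the haemocyte sum (8 unigenes) 26.2 to 39.4 and 6.72 to 16.4 RPKM. In each of these sums mature larva replicate 1 was the highest mature larva, as it was for the midgut enzymes. It stood at 2479.8 RPKM for muscle (853 and 746 in the others) and 839.8 RPKM for fat body (143 and 134). For haemocytes it stood at 16.4 RPKM (6.72 and 9.31). Single unigenes did not all follow the sums. Between larval stages, of 6 tested fat body unigenes 2 rose and 4 fell, and of 109 tested midgut enzymes 10 rose and 26 fell. Of 25 tested muscle unigenes 1 rose and 13 fell, and of 5 tested haemocyte unigenes 0 rose and 4 fell. Of all tested unigenes 25.3% rose and 9.73% fell. Of the 130 midgut enzyme unigenes, 8 had no read in any young larva, 4 in any mature larva, and 16 in the subimagoes and 16 in the imagoes. The part of these tissues in the members' changes was not tested.

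**Figure D4:**
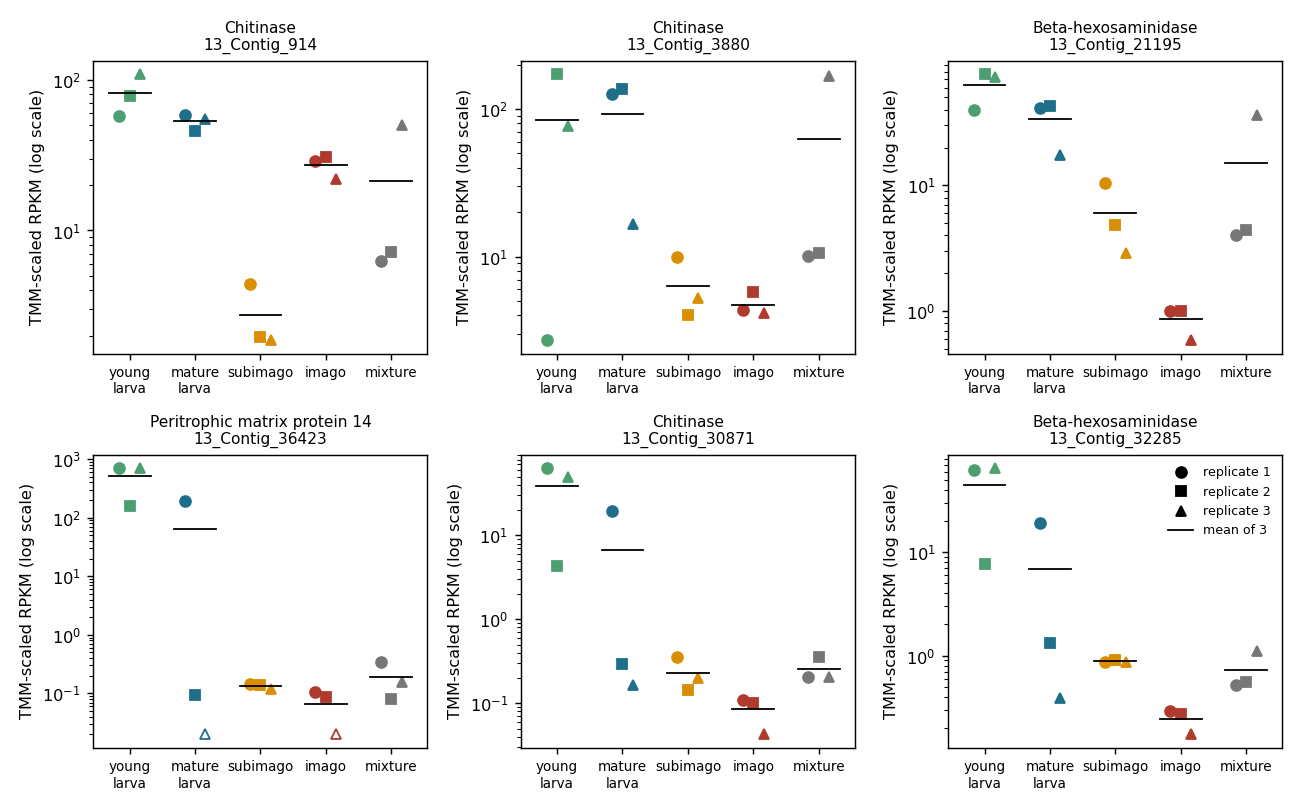
TMM-scaled RPKM per library of 6 members that were high in larvae (log axes; open symbols at the bottom mark libraries with 0 reads); symbols are replicates and the line is the mean of 3 libraries. In the lower row mature larva replicate 1 stands with the young larvae, at 192, 19.4 and 19 RPKM, while the other mature larvae are at or below 1.32 RPKM.

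Of 4 tested hexosaminidase-domain proteins, 3 rose between the larval stages and 2 of these rose again into the imago. Among all tested unigenes 25.3% rose between the larval stages and 6.74% into the imago. With an arthropod hit these shares were 37.0% and 13.6%. The annotation places a hexosaminidase domain in the 4 proteins, and their role in mayflies is not known from these files. Young larvae held 4.95, 4.82 and 6.17 RPKM of 13_Contig_3153, mature larvae 8.8, 12.2 and 13.2 RPKM, subimagoes 12.9, 17.2 and 17.6 RPKM and imagoes 28.2, 25.4 and 26.3 RPKM. Only mature larvae and subimagoes overlapped. It rose between the larval stages (log2 change 1.10 ± 0.21, adjusted p = 0.00098) and into the imago (0.74 ± 0.20, adjusted p = 0.0267). The second, 13_Contig_6896, was at 7.32, 10.9 and 9.74 RPKM, then 13.2, 17 and 15.1, then 13.5, 18.7 and 19, and last 26.2, 28.3 and 27.7 RPKM in the same order of stages. Its rises were 0.69 ± 0.20 (adjusted p = 0.0175) and 0.68 ± 0.20 (adjusted p = 0.0381). The third, 13_Contig_5725, was at 5.05, 5.61 and 5.73 RPKM in young larvae, 9.9, 13.4 and 14.2 RPKM in mature larvae, 14.8, 17.6 and 18.7 RPKM in subimagoes and 24.7, 24.7 and 24.4 RPKM in imagoes. It rose between the larval stages (1.19 ± 0.17, adjusted p = 0.000136), while the imago differed from the subimago by 0.53 ± 0.17 (adjusted p = 0.0561, and 0.0368 without mature larva replicate 1). All 3 imago libraries lay above the 9 other stage libraries in each of these 3 unigenes, as they did for 12.2% of all tested unigenes.

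The larval rise of 13_Contig_5725 was called in all 24 other settings, with log2 changes of 0.63 to 1.37, and that of 13_Contig_3153 when any 1 library was left out. Both imago calls were lost without subimago replicate 1 or 2 or any 1 imago, with adjusted p of 0.0611 to 0.136 for 13_Contig_3153 and of 0.0718 to 0.176 for 13_Contig_6896, whose call was also lost without young larva replicate 3 (0.0523). Its larval rise was lost without young larva replicate 1 (0.0725) or mature larva replicate 2 (0.0569). Scaling by library totals lowered the median log2 change between larval stages by 0.52 over all unigenes, and the larval rises then stood at 0.55 for 13_Contig_3153 (adjusted p = 0.07) and 0.12 for 13_Contig_6896 (adjusted p = 0.687). Another protein of this name, 13_Contig_19183, went the other way, at 1.56, 4.64 and 2.43 RPKM in mature larvae and 0.726, 0.592 and 0.602 RPKM in subimagoes (log2 change -2.16 ± 0.40, adjusted p = 0.00583). It was at 2.07 to 2.4 RPKM in young larvae and 0.691 to 1.12 RPKM in imagoes.

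Of the beta-hexosaminidases, 13_Contig_16529 also rose early and then held its level. Young larvae were at 1.41, 1.95 and 1.81 RPKM and mature larvae at 5.1, 5.19 and 5.25 RPKM (log2 change 1.59 ± 0.22, adjusted p = 7.56e-05). Subimagoes were at 6.99, 6.71 and 7.28 RPKM and imagoes at 6.95, 9.27 and 5.72 RPKM, which overlap. The chitinase 13_Contig_14745, a putative chitinase 3, did likewise, from 0.773, 1.17 and 0.53 RPKM in young larvae to 3.83, 4.76 and 6.81 RPKM in mature larvae (log2 change 2.64 ± 0.35, adjusted p = 6.54e-05), 5.16 to 7.24 RPKM in subimagoes and 5.78 to 10 RPKM in imagoes. It was the 1 chitinase that rose between the larval stages. A further beta-hexosaminidase, 13_Contig_5020, moved little, at 6.21, 11.5 and 9.93 RPKM in young larvae, 5.17, 6.05 and 4.18 RPKM in mature larvae, 9.93, 8.65 and 8.82 RPKM in subimagoes and 6.72, 6.83 and 6.38 RPKM in imagoes. Its larval fall (log2 change -0.85 ± 0.21, adjusted p = 0.00659) was lost without young larva replicate 2 (0.0502) or mature larva replicate 3 (0.0509). Its rise into the subimago (0.83 ± 0.21, adjusted p = 0.0212) was lost without mature larva replicate 1 or any 1 subimago (0.054 to 0.0769).

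**Figure D5:**
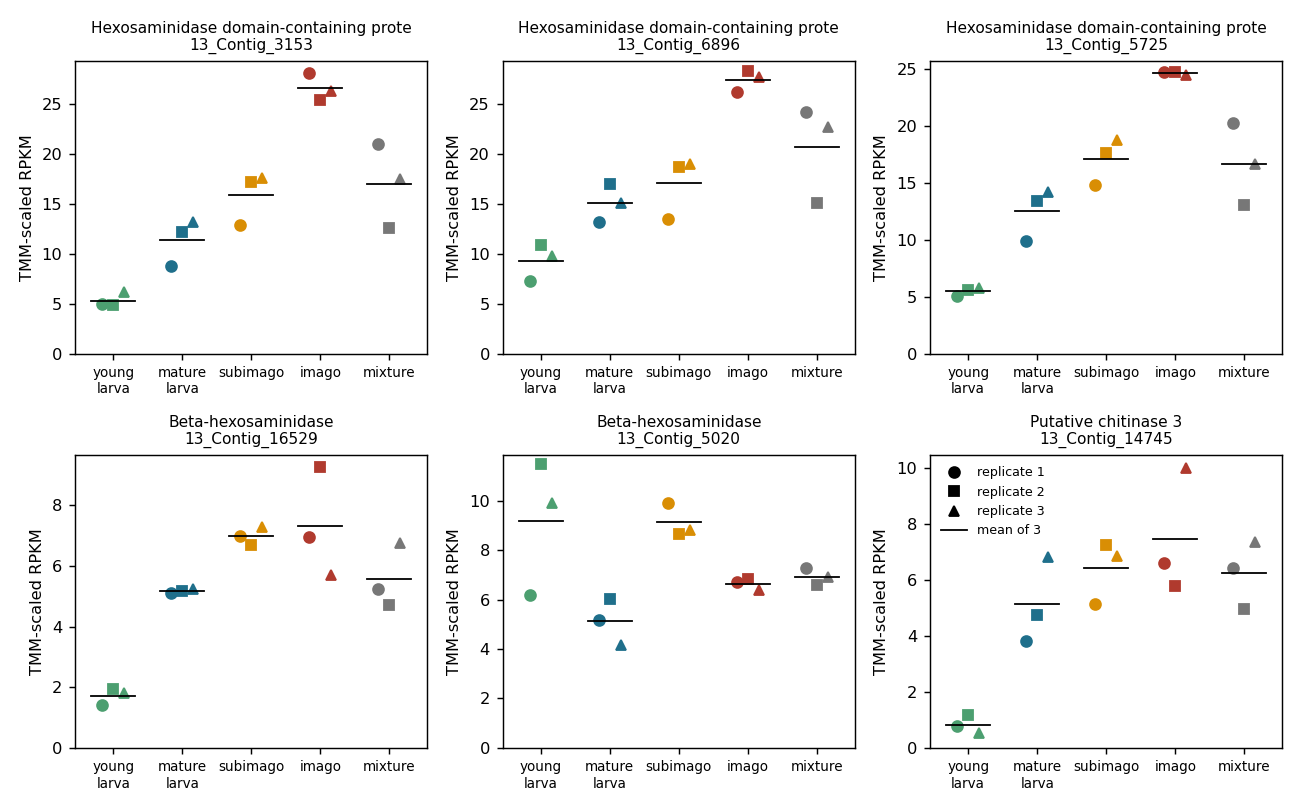
TMM-scaled RPKM per library of 3 hexosaminidase-domain proteins, 2 beta-hexosaminidases and 1 chitinase (linear axes from 0); symbols are replicates and the line is the mean of 3 libraries. The hexosaminidase-domain proteins were at 4.82 to 10.9 RPKM in young larvae and 24.4 to 28.3 RPKM in imagoes, and 13_Contig_5020 in the lower row shows no such climb.

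By stage of the highest mean, 18 tested members peaked in young larvae, 6 in mature larvae, 6 in subimagoes and 6 in imagoes. For 6, 0, 6 and 3 of them all libraries of the peak stage lay above all 9 others, against 16.3%, 2.35%, 5.32% and 12.2% of all tested unigenes. By highest mean, 43.1%, 14.9%, 19.2% and 22.8% of all tested unigenes peaked in these stages. In the same order 9, 2, 1 and 2 of the 14 chitinases, 4, 1, 0 and 4 of the 9 hexosaminidases and 5, 3, 5 and 0 of the 13 chitin-binding proteins did. The 9 tested members not described above were at 0.0305 to 11.5 RPKM in young larvae and 0 to 0.568 RPKM in subimagoes, and none was called at any transition with all libraries. Without mature larva replicate 1, 4 of the 9 were called lower in mature than in young larvae, with log2 changes of -7.04 to -4.51. So was 13_Contig_33524, a beta-hexosaminidase not tested with all libraries (log2 change -4.04 ± 1.36, adjusted p = 0.0257). In that fit 25.6% of all tested unigenes were called lower in mature larvae. The mean of the 3 mixture libraries lay within the range of the stage means for 34 of the 36 tested members and above it for 2. Within that range it could lie far below the peak. Mixture and young larva means were 0.194 and 511 RPKM for 13_Contig_36423 and 0.256 and 38.8 RPKM for 13_Contig_30871. They were 0.722 and 44.6 RPKM for 13_Contig_32285 and 6.02 and 79.4 RPKM for 13_Contig_9367. The reason was not tested.

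Genes that make chitin and cuticle were read beside the members, from word lists over animal hits. Of 13 tested unigenes of the chitin synthesis route, 1 rose and 6 fell between larval stages, 5 rose and 1 fell into the subimago, and 1 rose and 5 fell into the imago. Chitin synthases polymerise the sugar. Of 6 tested, 2 rose into the subimago, and the other 4 had their highest means in young larvae and no called rise. The most abundant, 13_Contig_3176, had mean levels of 39.7, 41.9, 125 and 4.26 RPKM in the 4 stages, rising into the subimago (log2 change 1.58 ± 0.27, adjusted p = 0.00421) and falling into the imago (-4.87 ± 0.31, adjusted p = 5.66e-06). The aminotransferase 13_Contig_1672, which makes glucosamine 6-phosphate at the start of the hexosamine branch, had means of 56.1, 22.3, 114 and 1.56 RPKM (log2 change 2.35 ± 0.48, adjusted p = 0.0101, and -6.19 ± 0.57, adjusted p = 5.56e-05). Of 29 tested cuticular proteins, 11 rose and 1 fell into the subimago and 0 rose and 24 fell into the imago, after 0 rises and 10 falls between larval stages. Without mature larva replicate 1 the chitin synthesis route had 2 rises and 9 falls between larval stages, 4 and 0 into the subimago and 0 and 6 into the imago, and the cuticular proteins had 2 and 15, 12 and 0, and 0 and 24. Their summed level was 3251 to 3790.5 RPKM in young larvae, 809 to 1641 RPKM in mature larvae, 5621 to 11268 RPKM in subimagoes and 46 to 68.5 RPKM in imagoes, the same order of stages as for 13_Contig_129 and 13_Contig_6250. Of 14 tested unigenes of the ecdysone response, the hormone pathway that times moults, 5 rose and 4 fell between larval stages, 2 rose and 5 fell into the subimago and 0 rose and 1 fell into the imago (6 and 4, 0 and 2, and 0 and 2 without mature larva replicate 1). The names knickkopf and retroactive, proteins that order chitin in the cuticle, matched 0 unigenes.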

How the data were processed

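Per the labels' protocols, RNA of pooled whole animals (22 ± 1 °C, 60% humidity, 16 h of light) was read as 125 bp pairs from 1 µg of RNA per library after removal of low-quality and ribosomal RNA reads, then joined into unigenes with CLC Genomics Workbench and CAP3, no genome being at hand. How reads were mapped and counted, and with what strand setting, is not given in the sources used here. DESeq is the tool in the submitters' processing notes, its version not given.

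In the deposited table are counts of reads per unigene and library and RPKM values, which the authors made from those counts. Each deposited RPKM equals count over length and library total to a largest relative difference of 3.42e-07. Printed levels were computed from the counts after TMM scaling. edgeR 4.0.16 (R 4.3.3, limma 3.58.1; glmQLFit and glmQLFTest, robust, filterByExpr) was fitted to all 15 libraries in 5 groups, which share 1 estimate of the spread. Changes are log2 ± SE, where the SE was worked back from the test, as the size of the change over the square root of its F statistic. For 13_Contig_95929, with 0 reads in both winged stages, the change and SE between these stages came out as 0 and measure nothing. The p-values were adjusted by Benjamini-Hochberg over 34131 unigenes. The labels call libraries of a group biological replicates. The fit did not pair libraries by replicate number.

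The members, the gene lists and the tests were chosen with earlier results of these data known. Described with values are the 5 members of each family with the highest mean level, up to 10 called members per transition and direction with the smallest adjusted p, and called members whose libraries at 1 stage lie above all others, up to 5 per stage. Context and marker lists (chitin synthesis, chitin organisers, cuticle, ecdysone response, midgut, muscle, fat body, haemocytes) were formed by words in names with an animal hit. No genome was used, so no sequence or position is given. Intervals cover counting error only.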

Additional observations from a re-analysis of the deposited data

Results flagged for a closer look

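The same words matched 20 further unigenes without an animal best hit, which the report does not use. Their best hits are proteins of the protists Polysphondylium, Gregarina, Tetrahymena, Capsaspora and Paramecium. The 3 young larva libraries held 1223, 254 and 798 reads on these unigenes and 2275 in all. Mature larva replicate 1 held 888 reads and the other mature larvae 45 and 75. The subimagoes held 116 to 171 reads and the imagoes 106 to 188. Most of these winged reads lay on 1 beta-hexosaminidase unigene, 13_Contig_95185. Summed over the libraries of a stage it held 206 reads in young larvae, 237 in mature larvae, 301 in subimagoes and 333 in imagoes. There is no control sample for this signal, and it lies above the limit of 3 reads that a count of 0 allows. The source of these reads was not tested.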

How the results depend on the processing

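Over 24 other settings, 20 of the 43 called changes of the 27 members described were called every time, and 23 were lost in 1 or more. The losses named with each member are mostly those with 1 library left out, and other settings took calls away too. Without a filter the rise of 13_Contig_129 into the subimago was lost (adjusted p = 0.053). Fitting only the 2 stages compared lost the larval fall of 13_Contig_21789 (0.0958). DESeq2 gave no adjusted p in 2 cases. The changes that reversed, both without mature larva replicate 1, were those of 13_Contig_36423 (1.72) and 13_Contig_30871 (0.05) into the subimago. Over all libraries left out in turn these ranged from -9.58 to 1.72 and from -5.55 to 0.05.

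Counts of members that moved by over 1.5 times were as follows. With library totals 3 rose between larval stages (5 as reported). Without a filter 3 fell there (6 as reported), and into the subimago 4 rose and 4 fell (7 and 10). DESeq2 1.42.0 gave 10 larval falls, 11 rises into the subimago and 5 into the imago, and a stricter filter (CPM of 1 in 3 libraries) also 5 into the imago (3 as reported). Same-numbered libraries correlated at -0.302 to 0.552. Between larval stages replicates 1 and 2 matched their own number best (0.485 and 0.552) and replicate 3 did not (-0.302). With 3 libraries per stage these values cannot settle whether numbers pair the libraries. With the replicate block 6 members fell into the subimago.

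For all tested unigenes, rises were 8652, 3064 and 2300 and falls 3322, 4833 and 3161 at the 3 transitions. Library totals gave 5384 rises and 5010 falls between larval stages, 3045 falls into the subimago and 1966 into the imago. Without a filter there were 2118 larval falls, and 1283 rises and 2007 falls into the subimago. Fitting only the 2 stages compared gave 5529 larval rises, 1623 rises and 2297 falls into the subimago and 4561 rises into the imago. DESeq2 gave 5260 larval falls, 5522 rises into the subimago and 4485 into the imago. The replicate block gave 2880 falls into the subimago.

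Leaving out 1 library at a time, members that rose and fell numbered 4 to 5 and 1 to 15 between larval stages, 4 to 8 and 3 to 14 into the subimago, and 1 to 4 and 9 to 12 into the imago. The same ranges over all unigenes were 7775 to 9619 and 1755 to 9932, then 783 to 4577 and 1067 to 6231, then 1074 to 2824 and 1908 to 3327. The share of calls that were rises was 72.3%, 38.8% and 42.1%, and 51.8%, 59.9% and 52.6% with library totals, 64.6%, 43.5% and 54.8% with DESeq2 size factors and 63.3%, 27.5% and 38.9% with TMM on arthropod hits. These scalings moved the median log2 change by -0.52, -0.18 and -0.23 between larval stages, by 0.27, 0.01 and -0.18 into the subimago and by 0.15, 0.12 and -0.09 into the imago. The cause of these differences was not tested. Depth limits the 17 members that the filter left out, which had 5 to 110 reads.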
